A study of Hordeum vulgare with 6 samples.

Results

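The regions described here are the stretches of barley chromosome 5H that carried H3K27me3 in every one of 3 ChIP-seq libraries from endosperm. Overlapping or touching peaks of the 3 lists were joined, and the joined regions on 5H were chosen by the presence of a peak in each list, so that the measured peak calls selected them. This gave 476 regions, of 3359 such regions over all sequences and 3237 on the 7 chromosomes. The series holds 3 H3K27me3 ChIP libraries and 3 input libraries of Hordeum vulgare cv. Morex, a six-rowed spring barley, all from endosperm dissected 16 days after pollination. No mutant, treatment or second stage was included. One peak list per ChIP library was used, and the inputs were not analysed here as separate measurements. About 2 g of tissue was cross-linked and the sheared chromatin was pooled before precipitation, and it is not stated whether separate plants gave the replicates. The SD between lists may therefore be technical. Peak lists carry no read numbers, so the depth behind each list is unknown.

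H3K27me3 is the trimethyl mark that Polycomb repressive complex 2 places on lysine 27 of histone H3. In plants it lies over silenced developmental genes and often spreads over a whole gene or a run of neighbouring genes. The endosperm stores the starch of the cereal grain, and in it the complex is also known for its part in parental imprinting. Barley chromosomes are large and rich in repeats. Genes and recombination concentrate towards the chromosome ends, and a wide central zone around the centromere holds few genes and recombines little. Barley chromosome sequences conventionally start at the end of the short arm. The position of the centromere is not in the lists, so the ends and the first and last 50% of the length are given here in place of the arms.

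The presence of peaks chose the regions, and the interval of 25 Mb that begins at 110 Mb was chosen with results of these data known. All values below are therefore a description, with no test. Fold means the enrichment that the authors' peak caller gave to a peak, and the highest fold among a list's peaks in a region is that list's value for the region. Covered share means the percentage of a stretch of sequence that lies in regions or peaks. Positions are given as in the lists, with the first base counted as 1. No genome build is named for the lists, so no gene is assigned to a region and no sequence is printed.

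The 476 regions spanned 23.7 Mb, which was 4.02% of 5H. The length of 5H was taken as 588 Mb, the end of its last peak. The peaks within these regions covered 3.60%, 3.74% and 3.75% of 5H in the lists of replicates 1, 2 and 3, or 3.69% ± 0.083 (SD, n = 3). On the other 6 chromosomes together the same values were 3.29%, 3.48% and 3.49%. In each list 5H ranked 3 of 7 chromosomes, behind 7H with 4.97% ± 0.11 and 1H with 3.75% ± 0.10 (SD, n = 3 each). It differed from 1H by less than the SD of either chromosome. It lay above 6H, with 3.55% ± 0.15 (SD, n = 3), by more than its own SD but less than that of 6H. The place of 5H rested in part on one region. Without the widest region of each chromosome, the merged regions covered 3.49% of 5H, 3.65% of 6H and 3.85% of 1H, which put 5H below 6H.

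Of the 925 merged regions on 5H, 51.5% had a peak in all 3 lists. The share was 48.3% on the other 6 chromosomes and 49.1% over all sequences. The rule used this count, so it is given as background only. On 5H the lists held 599, 765 and 785 peaks for replicates 1, 2 and 3. In the 476 regions they held 517, 512 and 507 peaks, close to equal since the rule asks for a peak of each list in every region. These peaks were 86.3%, 66.9% and 64.6% of each list's 5H peaks, and 97.7%, 92.4% and 91.8% of its 5H peak length.

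The regions that missed the rule were narrow and weak. On 5H, 155 merged regions had peaks in 2 lists, with a median width of 8.10 kb, and 294 had peaks in 1 list, with a median width of 4.22 kb. Replicates 2 and 3 shared 107 of the 155, replicates 1 and 3 shared 34, and replicates 1 and 2 shared 14. Just inside the rule, the region with the lowest mean fold lay at 577987464 to 577990049 and had folds of 1.99, 1.71 and 1.76 in replicates 1, 2 and 3. Just outside, the strongest region of 2 lists lay at 395997441 to 396008742. It had folds of 3.31 in replicate 2 and 3.30 in replicate 3, and no peak in replicate 1.

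Along the chromosome, the mark was unevenly spread. In 59 fixed windows of 10 Mb, the median covered share was 2.18%, and 16 windows were under 1%. At the other extreme, 7 windows were above 10% and held 46.1% of the total region length. The 3 windows with the highest share were 120 to 130 Mb with 20.3%, the first window of 0 to 10 Mb with 19.6%, and 110 to 120 Mb with 18.4%. The peaks of the 3 lists covered 19.7%, 19.9% and 19.9% of the first of these. They covered 18.2%, 17.8% and 18.3% of the window at the chromosome start, and 17.8%, 17.7% and 18.3% of the window from 110 Mb. The window from 120 Mb was above both others in every list, while the other two overlapped in their list values. The last window, from 580 Mb to the end, reached 17.2%.

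**Figure D1:**
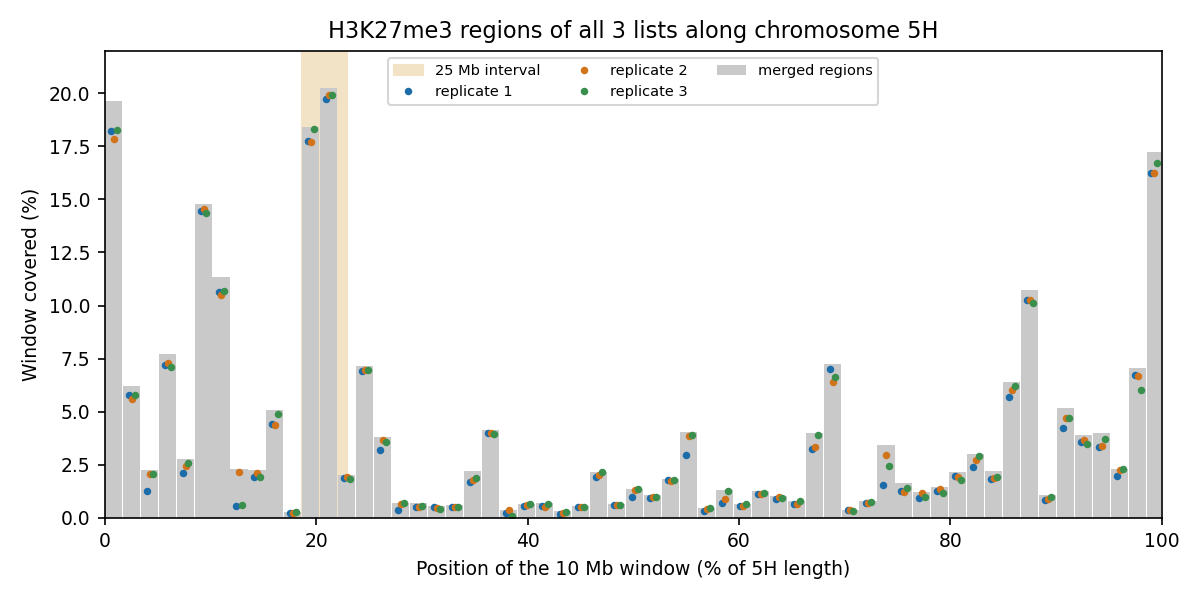
Covered share (%) of 10 Mb windows along 5H, placed by their position in percent of the chromosome length. Bars show the merged regions of all 3 lists, points show the peaks of each list in these regions, and the shaded band is the interval of 25 Mb from 110 Mb. The tallest bars are the windows from 120 Mb with 20.3% and from 0 Mb with 19.6%.

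High windows were built in different ways. The window at the start held 31 regions by their midpoints, and the largest of them gave 24.9% of its covered length. The last window held 28 regions, the largest giving 11.7%. The window from 510 to 520 Mb, with a share of 10.7%, held 15 regions, the largest giving 15.8%. In contrast, 1 region that crosses the boundary at 120 Mb gave 92.0% of the covered length from 110 to 120 Mb and 72.3% of that from 120 to 130 Mb. The largest region of the window gave 71.9% from 50 to 60 Mb and 68.6% from 60 to 70 Mb, where the shares were 14.8% and 11.3%. Coverage at the chromosome ends was thus spread over many regions, while 1 wide region made most of the coverage between 110 and 130 Mb, and 1 in each window most of that between 50 and 70 Mb.

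The middle of 5H was sparse. Between 160 and 390 Mb, which is 39.1% of the chromosome, 110 regions covered 1.23% of the sequence. They were 23.1% of the regions and 11.9% of the region length. The bounds lie where the window shares fall and rise. The share fell from 3.83% to 0.706% at 160 Mb and rose from 0.815% to 3.99% at 390 Mb. A low share therefore follows in part from how the stretch was cut. Of the 23 windows in that stretch, 13 were under 1%. By merged regions, the lowest window of 5H was not there. It was 100 to 110 Mb, directly before the interval of high coverage, with 3 regions and a share of 0.288%. The next lowest were 250 to 260 Mb with 0.307% and 220 to 230 Mb with 0.389%, the latter from 1 region. The order of these windows depended on the list. The peaks of replicates 1, 2 and 3 covered 0.248%, 0.244% and 0.265% of the window from 100 Mb. They covered 0.202%, 0.218% and 0.278% of that from 250 Mb, and 0.225%, 0.388% and 0.0822% of that from 220 Mb. The lowest window was thus from 250 Mb in replicates 1 and 2 and from 220 Mb in replicate 3, both within the sparse stretch. The longest stretch without a region ran for 10.9 Mb from 224732286 to 235680655. The longest such stretch on each other chromosome was between 9.09 Mb on 6H and 17.2 Mb on 3H.

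The share of windows under 1% was 27.1% on 5H, against 18.8% on 7H, 20.9% on 2H, 22.8% on 6H, 26.9% on 1H, 36.5% on 3H and 43.5% on 4H. In windows counted from 0 Mb, the highest 10 Mb window of 5H was lower than that of 5 of the other 6 chromosomes. Those reached 40.4% on 7H, 34.5% on 6H, 31.5% on 3H, 30.2% on 1H and 23.8% on 2H, while 4H reached 12.4%. This place depended on where the windows began, since the boundary at 120 Mb cut the widest region of 5H into pieces. In windows counted from 5 Mb, the highest of 5H was 115 to 125 Mb with 33.2%. Setting this value beside the other chromosomes was added after seeing the data. It ranked 3 of 7 behind 7H with 36.1% and 2H with 33.4%. The other 4 chromosomes then had between 12.3% and 31.0%. Only windows of full length were counted for these maxima.

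The 25 Mb that begin at 110 Mb were set against the rest of 5H. Merged regions covered 16.0% of the interval and 3.49% of the rest. In replicates 1, 2 and 3 the peaks covered 15.5%, 15.5% and 15.8% inside and 3.07%, 3.21% and 3.22% outside. The ratio of inside to outside was 5.03, 4.83 and 4.90, or 4.92 ± 0.10 (SD, n = 3), and 4.57 for the merged regions. The interval is 4.25% of the length of 5H and held 16.9% of the region length, but only 11 regions, which is 2.31% of the 476. Regions were sparser inside, with 0.440 per Mb against 0.826 per Mb outside. Their median width was much the same, at 15.0 kb inside and 15.0 kb outside. The median fold inside was 3.39, 3.37 and 3.69 in the 3 lists, against 2.79, 2.70 and 2.91 outside. The inside medians rest on 11 regions.

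The coverage of the interval came mainly from 1 region. The widest region of the chromosome, at 118307746 to 121464566, spanned 3.16 Mb and made up 79.2% of the covered length of the interval. It was 13.3% of the region length of all of 5H. Without it, the covered share of the interval was 3.32%, slightly below the rest of 5H, with a ratio of 0.952. Leaving out the second-widest region of the interval as well gave 1.37% and a ratio of 0.393. The interval thus had few regions, and in merged regions its excess over the rest of 5H reversed when the widest region was left out. That ratio was not computed for each list. The rest of 5H includes the densely covered chromosome ends, and the ratio was not computed without both them and the widest region.

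The widest region was present as nearly a single block in every list. Replicate 1 had 1 peak there, replicate 2 had 3 and replicate 3 had 2, and these covered 98.5%, 98.0% and 99.2% of the merged region. Its outer edges differed between lists by up to 49.9 kb at the start and 21.9 kb at the end. Its fold was low for its width, at 4.09, 4.75 and 5.02 in replicates 1, 2 and 3. On 5H, 96 of the 476 regions had a higher mean fold. Over the 7 chromosomes, 35 regions were at least 500 kb wide and had a median mean fold of 12.5, and 5 of them had a lower fold than this region. The next widest region of any chromosome spanned 2.31 Mb. The −log10 q of the strongest peak in the widest 5H region was 9.58, 23.3 and 27.5 in the 3 lists, lowest in replicate 1.

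The second-widest region of the interval, at 129592645 to 130080303, had the highest fold of 5H in every list. It spanned 488 kb and had folds of 97.1, 89.7 and 96.0 in replicates 1, 2 and 3, a mean of 94.3 ± 4.0 (SD, n = 3). Each list had a single peak over at least 98.6% of it. Its −log10 q was 1419, 2447 and 2551. The widest region and the strongest region of 5H thus lay within the same 25 Mb, and the fold of the strongest was far above that of the widest in each list.

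The interval held 2 more regions of at least 80 kb. One, at 114847978 to 114961519, was 114 kb wide and had folds of 3.63, 4.58 and 4.06. The other, at 121579564 to 121704459, lay 115 kb after the end of the widest region and was 125 kb wide, with folds of 2.63, 2.28 and 2.12. It was broken up differently by list, into 6, 4 and 1 peaks in replicates 1, 2 and 3. The remaining 7 regions were between 9.67 and 31.4 kb wide, with mean folds from 1.97 to 6.66. At the edges of the interval, the last region before it ended at 104578721, with folds of 2.82, 2.29 and 2.31, and the first inside began at 113045714. The last inside ended at 133527760, and the next began at 135077265, with folds of 2.98, 1.85 and 2.37.

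As background only, since the rule used this count, the lists shared fewer of their regions in the interval. Of 45 merged regions there, 11 (24.4%) had a peak in all 3 lists, against 52.8% in the rest of 5H. A run of 20 neighbouring regions from 127919101 to 128374360 was called in replicate 3 alone. Their folds lay between 1.79 and 1.95 and their −log10 q between 1.13 and 1.78, and the lowest −log10 q in that list was 1.04. Without this run, 11 of 25 merged regions (44.0%) were in all 3 lists.

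**Figure D2:**
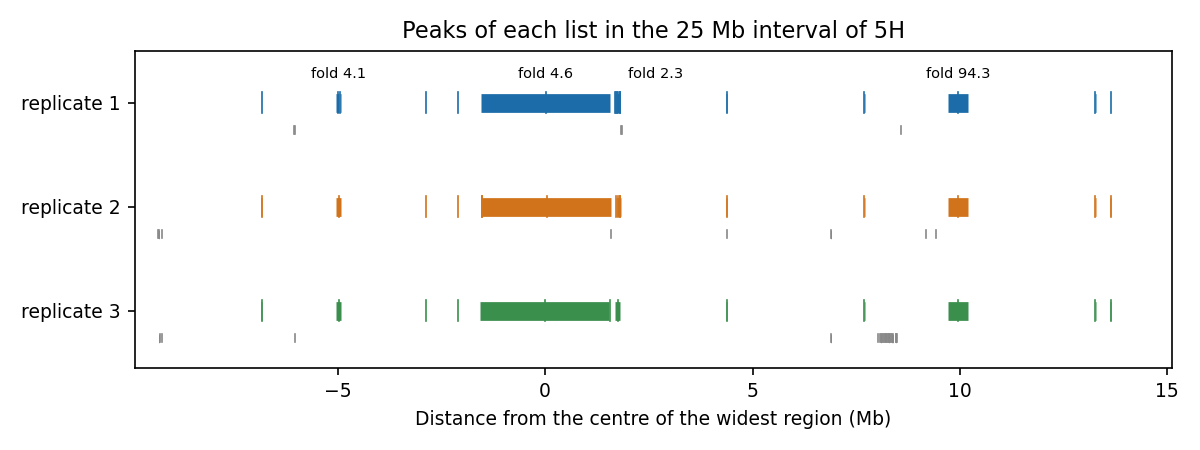
Peaks of each list in the 25 Mb of 5H that begin at 110 Mb, by distance (Mb) from the centre of the widest region. Coloured blocks are peaks in regions of all 3 lists, grey marks below them are peaks of other regions, and each narrow peak carries a thin line that is wider than its true scale. Mean folds are written above the regions of at least 80 kb, from 2.3 to 94.3, and the grey run in replicate 3 is the run of 20 regions.

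To set the interval beside other chromosomes, 25 Mb windows in 5 Mb steps were compared. Among windows that lay wholly between 10% and 90% of the length, the highest on 5H was the interval itself, with 16.0%. The highest were 12.0% on 6H, 11.3% on 2H, 7.87% on 7H, 5.50% on 1H, 4.63% on 3H and 3.02% on 4H. Without the widest region of each chromosome, the highest on 5H became 495 to 520 Mb with 7.37%. That on 2H fell to 4.88%. The highest window of 6H, from 70 to 95 Mb, does not contain the widest region of 6H. An alternative added after seeing the data therefore left out the region with the largest share of each chromosome's highest window. That region gave 79.2% of the covered length of the window on 5H, 82.2% on 2H and 17.6% on 6H. Without it the same windows had 3.32% on 5H, 2.01% on 2H and 9.91% on 6H. Between 20% and 80% of the length, 5H had 11.5% in its highest window, from 120 to 145 Mb, and the other chromosomes had between 3.02% and 5.99%. The same window of 5H had 5.67% without the widest region.

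The beginning of 5H was more densely covered than its end. In the first 10% of the length, merged regions covered 9.07%, and in the last 10% they covered 6.27%. The peaks of replicates 1, 2 and 3 covered 8.33%, 8.47% and 8.53% of the first 10%, and 5.67%, 5.81% and 5.80% of the last 10%. The ratio of last to first was 0.681, 0.687 and 0.681, so that the lists differed by far less than the ends did. By number the order was the opposite. The first 10% held 80 regions, or 1.36 per Mb, and the last 10% held 95, or 1.62 per Mb, against 0.640 per Mb between them. The regions at the start were wider, with a median of 23.5 kb against 19.0 kb at the end and 13.2 kb in between. At least 80 kb wide were 17 regions at the start and 14 at the end. The widest spanned 1061 kb in the first 10% and 310 kb in the last 10%. With 5% of the length at each end, which leaves out the region of 1061 kb, the ratio of merged regions was 0.844. It was 0.691 with 10% and 0.818 with 20%. The ratio at 10% was not computed without that region. The median fold at the start was 3.07, 2.92 and 3.11 in the 3 lists, and at the end 2.86, 2.90 and 2.98. The fold differed little between the ends, and in replicate 2 least.

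Split at its midpoint, 5H had 4.82% of its first 50% covered and 3.22% of its last 50%. The ratio of last to first was 0.638, 0.650 and 0.655 in the 3 lists. The first 50% held 219 regions and the last 50% held 257, with median widths of 15.3 and 14.7 kb. The widest region accounted for much of the difference in coverage, since the ratio of the merged regions rose from 0.669 to 0.861 without it. The fold showed no such difference. The mean over lists of the median fold was 2.81 ± 0.11 in the first 50% and 2.79 ± 0.096 in the last 50% (SD, n = 3 each).

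At the ends, 4 of the other 6 chromosomes leaned the same way as 5H. The ratio of last to first 10% over merged regions was 0.241 on 1H, 0.447 on 6H, 0.516 on 2H, 0.691 on 5H and 0.701 on 7H, and it was above 1 on 4H with 1.54 and on 3H with 2.05. On each chromosome all 3 lists gave the same direction. 5H and 7H were close to each other in ratio, but 7H was more covered at both ends, with 17.8% in the first and 12.5% in the last 10%. For the first and last 50%, the ratio on 5H, 0.669, lay between 0.539 on 6H and 0.870 on 7H.

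**Figure D3:**
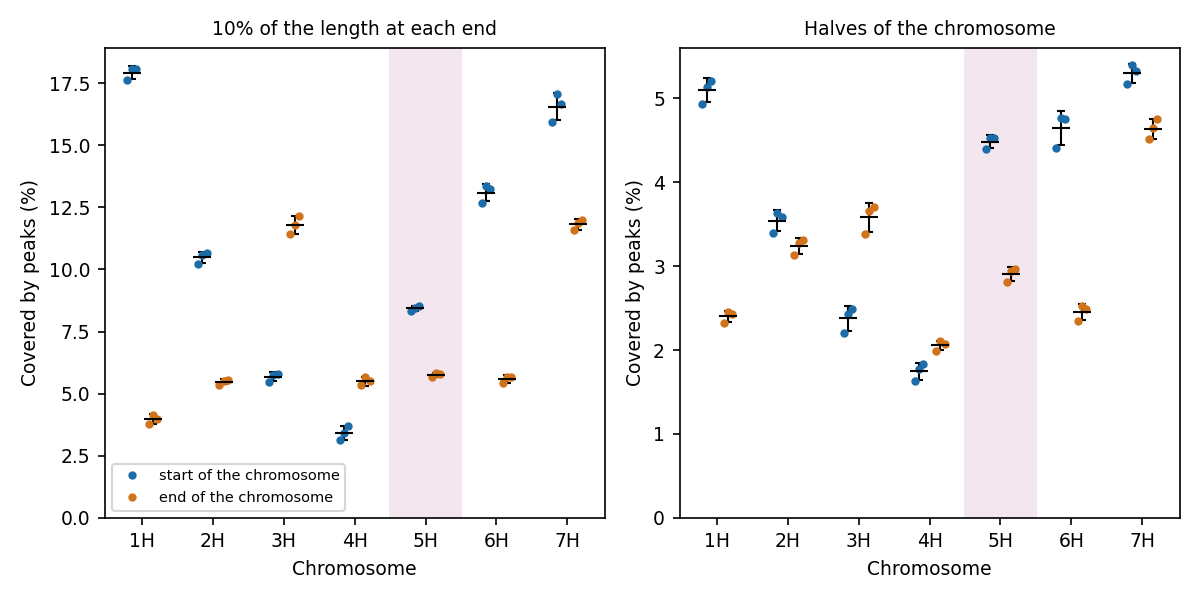
Covered share (%) of the first and last 10% of each chromosome (left) and of the first and last 50% (right). Points are the peaks of each list in regions of all 3 lists, and bars are the mean and SD over the 3 lists. On 5H (shaded) the start lies above the end in both panels in all 3 lists, and on 3H and 4H the order is the opposite.

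Region widths on 5H were typical of the other chromosomes. The median was 15.0 kb, with quartiles of 9.06 and 38.6 kb, against 15.0 kb with quartiles of 9.41 and 40.5 kb on the other 6 chromosomes. Medians of single chromosomes ran from 12.4 kb on 4H to 16.6 kb on 7H. The narrowest 5H region spanned 2.59 kb. Of the 476 regions, 274 were under 20 kb wide, and these 57.6% of the regions held 11.8% of the region length. At least 80 kb wide were 63 regions, or 13.2%, against 13.9% on the other 6 chromosomes, and they held 65.3% of the 5H region length against 64.7%. Both shares are near the background, so the count of wide regions on 5H is no result of its own.

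Region edges mostly lay close together between the lists, but not in every region. Each list covered at least 50% of the region in 376 of the 476. A region of 163 kb at 74695317 to 74858763 was covered 3.79%, 100% and 4.42% in replicates 1, 2 and 3. In 430 of the 476 regions (90.3%), each list had exactly 1 peak. The starts of a region in the 3 lists lay within a median of 1.56 kb, and the ends within 1.81 kb. Bases that all 3 lists covered made up 82.9% of the merged length on 5H, against 80.7% on the other 6 chromosomes. The median of the length that a list covered in a region was 12.0, 13.0 and 13.6 kb in replicates 1, 2 and 3.

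The median fold of the 5H regions was 2.79, 2.70 and 2.91 in replicates 1, 2 and 3. On the other 6 chromosomes the medians were 2.77, 2.65 and 2.82. In this measure, too, 5H ranked 3 of 7 chromosomes in each list, below 7H and 1H, but its mean over lists, 2.80 ± 0.10, lay within 1 SD of both 1H with 2.83 ± 0.085 and 3H with 2.75 ± 0.13 (SD, n = 3 each). Most regions were weak. The mean fold was under 2 in 20 regions, from 2 to 5 in 368, from 5 to 20 in 83, and 20 or more in 5. The 88 regions whose mean fold was 5 or more were 18.5% of the regions, against 17.5% on the other 6 chromosomes. They held 46.0% of the 5H region length, and the corresponding share was 54.0% on the other 6 together. It was lower on 4H with 42.8% and 6H with 45.1%, and between 54.6% and 59.6% on the remaining 4. The widest 5H region, with 13.3% of the length, had a mean fold under 5. The median −log10 q of the regions was 3.73, 6.62 and 7.91 in replicates 1, 2 and 3, which followed the order of the lists in peak number.

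Wider regions had higher folds. Across the 476 regions Spearman's rho between width and mean fold was 0.696, against 0.688 across the 2761 regions of the other 6 chromosomes. Width and fold come from the same peaks, and regions are not replicates. The 63 regions of at least 80 kb had a median fold of 8.19, 7.82 and 8.25 in replicates 1, 2 and 3. The other 413 regions had 2.63, 2.54 and 2.76. The relation was loose at the wide end, where 24 of the 63 wide regions had a mean fold under 5. Conversely, 49 narrower regions reached 5.

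**Figure D4:**
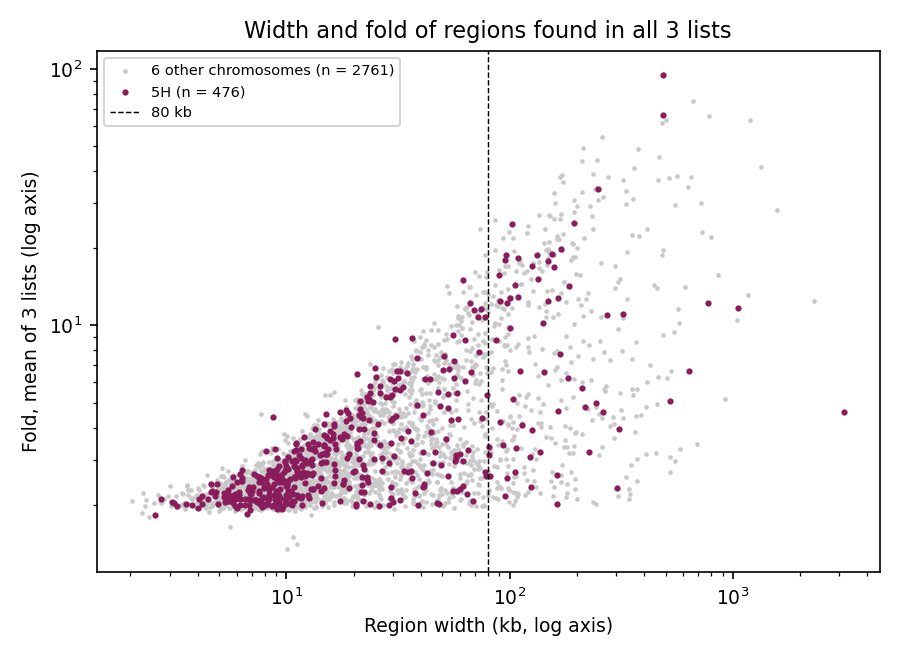
Mean fold over the 3 lists against region width (kb), both on log axes, for 476 regions on 5H (dark) and 2761 on the other 6 chromosomes (grey). The dashed line marks 80 kb. The widest 5H region, of 3157 kb with a fold of 4.62, lies to the right of all other points, and the strongest, of 488 kb with a fold of 94.3, lies near the top.

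Within the chosen regions, the fold of a region mostly differed little between lists. The rule had already left out every region that a list did not call. The values below therefore describe the chosen regions and do not measure how well the lists agree in general. The median coefficient of variation over the 3 lists was 10.2% on 5H and 10.7% on the other 6 chromosomes, and the highest on 5H was 32.0%. Across the 476 regions, Spearman's rho of fold between replicate 1 and replicate 2 was 0.849. It was 0.863 between replicates 1 and 3, and 0.886 between replicates 2 and 3. Of the 476 regions, replicate 1 gave the highest fold in 198, replicate 2 in 94 and replicate 3 in 184.

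Strong regions were denser towards the chromosome ends, as were regions of any fold, and the strongest of all were not confined to the ends. Of the 88 regions with a mean fold of 5 or more, 23 lay in the first 10% of the length, among 80 regions there. The last 10% held 20, among 95 regions, and 45 lay in the much longer stretch between. Over all of 5H, strong regions were 18.5% of the regions. Regions of any fold numbered 1.36 per Mb in the first 10%, 1.62 per Mb in the last 10% and 0.640 per Mb between. The density of strong regions was thus not separate from that of all regions, and any excess beyond it was not tested. After the region at 129592645, the next strongest was at 783455 to 1271514, near the chromosome start. It spanned 488 kb, with folds of 68.4, 66.9 and 63.1. A region of 248 kb at 38598130 to 38846092 followed with folds of 36.5, 26.6 and 39.2. Replicate 2 was the lowest there, and the mean was 34.1 ± 6.6 (SD, n = 3). The next, at 2980738 to 3175182, was 194 kb wide and had folds of 21.4, 24.7 and 29.0, which overlapped those of the region before it in the replicate 3 value alone.

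The fifth strongest lay in the sparse middle of the chromosome. It was at 314456046 to 314558957, with a width of 103 kb and folds of 26.7, 20.7 and 27.3. Its mean of 24.9 ± 3.7 could not be separated from the 25.0 ± 3.8 (SD, n = 3 each) of the region at 2980738. These 5 were the regions of 5H with a mean fold of 20 or more.

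The other 5 of the 10 strongest all lay at 86.9% of the length or beyond and were alike in fold. Between 510 and 519 Mb there were 3 of them. The region at 518230663 to 518400571 had folds of 21.0, 21.3 and 17.1. The region at 515929466 to 516084737 had 20.4, 19.8 and 16.7. The region at 510889430 to 510998921 had 17.3, 18.4 and 19.2. A pair of neighbours, 23.3 kb apart, lay near the end. The first, at 585514733 to 585648140, had folds of 18.3, 17.8 and 20.3, and the second, at 585671459 to 585767966, had 20.4, 19.5 and 16.8. These 5 regions were between 96.5 and 170 kb wide, their means ran from 18.3 to 19.8, and their list values overlapped throughout.

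Among the 10 widest, only the regions at 129592645 and 783455 were also among the 10 strongest. After the region of 3.16 Mb came one of 1061 kb at 52588587 to 53649705, with folds of 13.3, 11.9 and 9.94. The next was 776 kb wide at 62038612 to 62814996, with folds of 11.3, 13.4 and 12.1. These formed most of the covered length of the high windows between 50 and 70 Mb. A region of 636 kb at 141783904 to 142420238 had folds of 7.37, 5.71 and 6.77 and gave 88.9% of the covered length of the window from 140 Mb.

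Of the remaining wide regions, the region at 399784254 to 400306274 was 522 kb wide and had folds of 5.50, 4.68 and 5.09. The region at 32230116 to 32550931 was 321 kb wide and stronger, with folds of 10.8, 10.5 and 12.0. Broken coverage marked the last 2 of the 10. At 575199552 to 575509688, a region of 310 kb had folds of 3.25, 3.76 and 4.82, from 2, 5 and 6 peaks. At 435728761 to 436031447, a region of 303 kb had folds of 2.24, 2.70 and 2.02. Replicate 1 covered only 41.2% of it with 10 peaks, while replicate 2 covered 86.5% and replicate 3 covered 70.1% with 1 peak each. The starts of this last region lay up to 84.1 kb apart between lists.

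The regions nearest the chromosome ends were small. The first, at 21248 to 43174, had folds of 2.19, 2.20 and 2.79, and replicate 1 covered 31.6% of it. The last, at 588175290 to 588190372, had folds of 5.11, 4.01 and 4.48, above those of the first in each list.

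**Figure D5:**
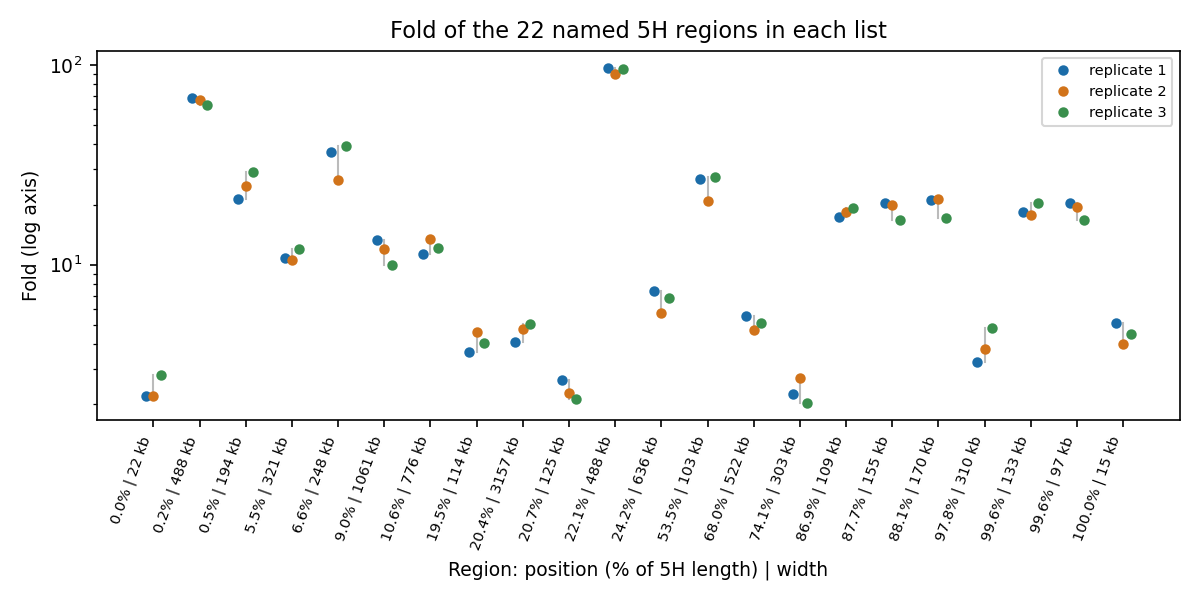
Fold (log axis) in replicates 1, 2 and 3 of the 22 named 5H regions, ordered along the chromosome and labelled with position in percent of the length and width in kb. The region at 22.1% stands highest with 94.3 on average, and the widest region at 20.4%, close to it on the chromosome, has 4.62.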

How the data were processed

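Per the labels, chromatin of barley endosperm was precipitated with an antibody against H3K27me3 and sequenced as paired-end reads of 150 bp. HISAT2 2.1.0, GATK and MACS2 are named in the submitters' processing notes, without settings. The aligner's parameters, the genome build and the use of the input libraries in peak calling are not given in the sources used here. The deposited lists have 9 columns and are given for 1 library each. In the list deposited for replicate 3 all peak names carry the number 4, and the label was followed, so which library that list came from rests on the label. The deposited fold ratio (column 7) is read as enrichment over the peak caller's background. Column 8 holds the deposited −log10 of the p-value and column 9 that of the q-value. The lowest −log10 q was 1.03 ± 0.014 (SD, n = 3). The deposited score equalled the integer part of 10 × −log10 q in 99.9% of peaks and was not used. A list from fewer reads needs a higher fold to call a region.

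Peaks were merged as described with Python 3.11.15, numpy 2.4.6 and pandas 2.3.3, and rank correlations came from scipy 1.17.1. Peak starts were read as 0-based. Merging, coverage and fold steps were tested on simulated lists with planted regions. Named regions are the 10 strongest by mean rank of fold over lists, the 10 widest, the first and last on 5H, and those of at least 80 kb in the 25 Mb that begin at 110 Mb. Regions were assigned to windows by midpoint where counted and by bases where covered. The members, the interval, the thresholds and the lists of settings were chosen with earlier results of these data known. Genes were left out because no build is named.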

Additional observations from a re-analysis of the deposited data

How the results depend on the processing

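In all, 9 summaries of 5H were recomputed under 83 alternatives and the folds of 22 named regions under 88. Of the 83, 57 moved the summary beyond the limits given in the next paragraph. In 2 others of the 83, both on merged regions, the excess of the 25 Mb from 110 Mb over the rest of 5H reversed. Without the widest 5H region the ratio was 0.952, and without the 2 widest regions of the interval, an alternative added after seeing the data, it was 0.393. The ratios of the chromosome ends and of the first and last 50% kept their direction in every alternative run.

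Stricter peaks left fewer and stronger regions by construction, and the regions left were also wider. With a −log10 q of at least 5 there were 188 regions covering 3.06% of 5H, with a median width of 33.0 kb and a median fold of 4.78. The ratios were 6.06 for the interval, 0.544 for the ends and 0.511 for the last against the first 50%. With a fold of at least 3 there were 160 regions covering 2.90%, with a width of 39.7 kb and a fold of 5.21. The ratios were 6.48, 0.524 and 0.491, and 62.7% of merged regions were in all 3 lists. When each list had to cover at least 50% of a region, there were 376 regions. The covered share was then 3.67%, the width 18.3 kb and the fold 3.13. The ratios were 5.04, 0.704 and 0.630, and the share in all 3 lists was 40.6%. Regions of at least 2 lists gave 4.33%, 12.0 kb, a fold of 2.54 and ratios of 4.20, 0.703 and 0.698. Bases covered by all 3 lists gave 3.33%, stretches of 9.78 kb and ratios of 5.40, 0.668 and 0.616. Merging peaks up to 5 kb apart moved none of the 8 summaries it was applied to beyond its limit. The limit was a change of 1.5 times for the count. For the share in all 3 lists it was the 95% binomial interval of 48.2% to 54.7%, which treats merged regions as independent. For the other summaries it was the SD between lists.

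With 1 list left out, the number of regions was 497 to 591, the covered share 3.92% to 4.17%, the median width 12.6 to 13.9 kb, and the median fold 2.52 to 2.77. The ratio of the interval was 4.39 to 4.62, that of the ends 0.688 to 0.698 and that of the first and last 50% 0.663 to 0.679. The share in all remaining lists was 61.1% to 64.9%. The interval from 110 to 130 Mb gave a ratio of 5.55, and setting it against 5H without 10% at each end gave 6.67. Ends of 5% and 20% gave 0.844 and 0.818. Without the widest region, added after seeing the data, the covered share was 3.49% and the ratio of the last to the first 50% was 0.861. The highest window held 33.2% in 10 Mb windows from 5 Mb, 34.3% in 5 Mb windows, 12.9% in 20 Mb windows and, added after seeing the data, 19.6% without the widest region. In the last 2 cases it was the window at the chromosome start. With a length-weighted mean fold, the regions at 62038612 and 575199552 moved to 11.0 and 2.99, and the other 20 by less than their SD. Where no cause is given by construction, the cause was not tested.

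No paired analysis was possible because peak lists were analysed for the ChIP libraries alone and no test was made. Depth is unknown, so weak regions missed in a list cannot be told from absent ones.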

Other observations

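Besides the run in the interval, 2 other runs of 5 neighbours on 5H were present in only 1 list. Replicate 2 alone had 5 regions from 203920320 to 205215831, with folds from 1.91 to 2.50 and a −log10 q of up to 5.48. Replicate 3 alone had 5 regions from 533326578 to 533622382, with folds from 1.83 to 2.06.

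Neighbouring 5H regions were a median of 657 kb apart, against 497 kb on 7H and 856 kb on 4H. Less than 50 kb separated 38 pairs of neighbours, which was 8.00% of the pairs on 5H. This was the lowest of the 7 chromosomes but close to 8.48% on 4H, 8.77% on 2H and 9.25% on 3H. The share was 11.0% on 1H, 11.7% on 6H and 13.9% on 7H. These differences were not tested.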
